A study of Mus musculus with 6 samples.

Results

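The imprinted *Peg3* and *Snrpn* domains lie on proximal and central mouse chromosome 7. Their 9 genes examined here were found by symbol in the gene count tables, which together list 16279 genes. The *Peg3* domain gave 3 genes (*Peg3*, *Usp29* and *Zim1*) and the *Snrpn* domain 6 (*Snrpn*, *Ndn*, *Magel2*, *Mkrn3*, *Ube3a* and *Peg12*). Of the 9, 7 are listed for both cell types, while *Zim1* and *Magel2* are listed for CPCCs only.

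RNA was sequenced in bulk from 3 libraries of F1 mESCs and 3 of CPCCs, all male and from a cross of C57BL/6 with CAST/EiJ. Per the study's methods the mother was C57BL/6J and the father CAST/EiJ, the mESCs were single-cell derived clones from 3 blastocysts, and they grew without feeders in 2i medium with serum, Lif and the inhibitors PD0325901 and CHIR99021. The CPCCs (cardiac precursor cell cultures) came from the same clones through hanging drops and embryonic bodies with ascorbic acid, followed by passages in medium with EGF and Fgf2, and each culture holds several cell types. As the table columns give no replicate number, libraries go by their column names. The mESC libraries are S01, S02 and S03, the CPCC libraries are S04, S05 and S06, and no library was tied to its clone. In bulk samples, more cells of a type and more RNA per cell cannot be told apart.

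An imprinted gene is transcribed mainly from a single parental allele, set by DNA methylation laid down in the germ line. In the *Peg3* domain, *Peg3* and its divergent neighbour *Usp29* are known as paternally expressed and *Zim1* as maternally expressed. In the *Snrpn* domain, *Snrpn*, *Ndn*, *Magel2*, *Mkrn3* and *Peg12* are paternally expressed, and *Ube3a* is expressed from both alleles in most tissues and from the maternal allele in neurons. Loss of the paternal genes of the corresponding human region causes Prader-Willi syndrome, and loss of maternal UBE3A causes Angelman syndrome. The deposited counts are not split by allele, so all values below are sums over both alleles.

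Library totals lay between 6442639 and 6907330 counts in mESCs and between 8468819 and 11436062 in CPCCs, with the largest total in S04. Markers of the labelled cell types were read as summed CPM, that is, TMM-normalized counts per 1000000. All 8 pluripotency markers were lower in CPCCs, where their sum lay between 147 and 309 CPM against 4506 to 4954 CPM in mESCs. Of 8 cardiac progenitor markers, 4 were listed for both cell types and 1, *Tnnt2*, was higher at the threshold. Their sum lay between 41.6 and 141 CPM in CPCCs and between 4.41 and 6.64 CPM in mESCs. *Tnnt2* alone held 103, 24.0 and 28.3 CPM in S04, S05 and S06. *Gata4*, *Isl1* and *Myl7* did not pass the threshold. *Nkx2-5*, *Mef2c* and *Hand2* were missing from the mESC table and *Tbx5* from the CPCC table, and a missing gene adds nothing to a sum. All 4 tested mesenchymal markers and 6 of 7 tested neural markers were higher in CPCCs. The mesenchymal sum rose from between 10.8 and 18.6 CPM to between 11575 and 17816 CPM, with 5 of 9 markers, *Col1a2* among them, missing from the mESC table. The neural sum lay between 47.7 and 52.2 CPM in mESCs and between 582 and 621 CPM in CPCCs, with *Pax6* and *Syp* missing from the mESC table. The part of these cell types in the results below was not tested.

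The start sites of these genes are shown first, because the domains hold a divergent pair and a family of alternative starts. RefSeq promoter windows of GRCm38.p6, from 250 bases before to 50 bases after each start, were found for 9 of 9 genes. *Peg3* and *Usp29* start 164 bases apart on opposite strands, and 263 of the 300 bases of their windows are shared. The *Peg3* window is printed 5′ to 3′ on the minus strand (chr7:6730370-6730669), with CpG dinucleotides, the sites of methylation, in capitals.
Peg3: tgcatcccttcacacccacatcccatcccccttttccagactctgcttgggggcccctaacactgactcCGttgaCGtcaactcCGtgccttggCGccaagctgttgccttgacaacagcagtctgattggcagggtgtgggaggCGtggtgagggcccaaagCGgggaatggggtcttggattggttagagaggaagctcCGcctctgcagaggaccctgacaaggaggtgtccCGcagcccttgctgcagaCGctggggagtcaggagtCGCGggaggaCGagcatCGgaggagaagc
This window holds 13 CpGs and that of *Usp29* 17, against a median of 7 over 32817 windows of the same length. The other members had from 2 CpGs, at the most distant *Snrpn* start, to 29, in the *Ube3a* window. Neither the *Peg3* nor the *Usp29* window holds the letters TGCCGC (motif of the imprint-binding protein ZFP57), CCATNTT (YY1 core) or GCATGCG (NRF1 core) on either strand. Sequence outside the windows was not searched.

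Of the 3 motifs, the NRF1 core was found at *Snrpn* and *Ndn*, and the YY1 core at 3 other members. *Snrpn* has 4 start sites in RefSeq, and each of their windows holds 1 run of CGCATGCG, in which matches on both strands overlap. The *Ndn* window holds the same run. GCATGCG was found in 3.57% of all windows on either strand, and CGCATGCG in 1.86%. The *Snrpn* windows away from the start shared with *Snurf* are near copies of one another in sequence, so their runs are not independent finds. Windows of the *Snrpn* start shared with *Snurf* (chr7:60005150-60005449, minus strand), of a more distant *Snrpn* start (chr7:60140176-60140475, minus strand) and of *Ndn* (chr7:62348027-62348326, plus strand) follow, 5′ to 3′, with matches to the 3 motifs on either strand in capitals.
Snrpn, start shared with Snurf: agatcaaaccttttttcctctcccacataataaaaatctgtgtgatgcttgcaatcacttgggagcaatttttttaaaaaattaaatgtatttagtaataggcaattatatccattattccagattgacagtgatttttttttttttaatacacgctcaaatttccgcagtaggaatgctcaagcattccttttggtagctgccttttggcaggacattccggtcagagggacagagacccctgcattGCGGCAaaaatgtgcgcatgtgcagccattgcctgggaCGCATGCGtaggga
Snrpn, distant start: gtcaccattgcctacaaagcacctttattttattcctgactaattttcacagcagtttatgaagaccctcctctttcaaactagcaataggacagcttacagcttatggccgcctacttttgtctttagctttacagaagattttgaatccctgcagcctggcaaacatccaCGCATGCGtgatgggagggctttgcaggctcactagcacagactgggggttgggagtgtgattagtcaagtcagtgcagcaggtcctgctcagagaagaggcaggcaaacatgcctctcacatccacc
Ndn: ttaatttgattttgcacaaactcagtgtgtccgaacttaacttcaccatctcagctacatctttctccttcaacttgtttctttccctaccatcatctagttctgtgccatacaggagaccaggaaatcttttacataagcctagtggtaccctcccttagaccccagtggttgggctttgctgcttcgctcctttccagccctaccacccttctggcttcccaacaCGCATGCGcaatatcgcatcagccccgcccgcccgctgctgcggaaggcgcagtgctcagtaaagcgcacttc
The run begins at position -23 relative to the start site in *Ndn*, at -78 at the distant *Snrpn* start and at 36 at the start shared with *Snurf*. That last window also holds 1 match to the ZFP57 motif, beginning at position -2, a motif found in 11.6% of all windows. Among the other members, *Zim1* holds 1 match to the ZFP57 motif, and *Magel2*, *Mkrn3* and *Ube3a* hold 1 YY1 core each, which 16.1% of all windows hold. A match of letters is a description and shows no binding.

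In the comparison of CPCCs with mESCs, 5 of the 7 members listed for both cell types were higher in CPCCs and 0 were lower when edgeR's quasi-likelihood fit was called at 0.05 after Benjamini-Hochberg adjustment over 12471 genes. *Ndn* and *Peg3* rose most, by 17.4-fold and 14.7-fold, *Mkrn3* rose 4.21-fold, *Ube3a* 2.74-fold and *Peg12* 2.49-fold. *Usp29* and *Snrpn* did not pass the threshold. Of all genes tested, 31.7% were higher in CPCCs and 29.7% lower, 61.4% in either direction. The median log2 fold change was 1.45 over the 7 members and 0.03 over all genes tested. With *Magel2* and *Zim1* at their bounds the members' median was 1.84, which is the bound of *Zim1* itself. That bound rests on S04, and with *Zim1* at its value without S04, 0.94-fold, the median stays at 1.45. The 3 libraries of one cell type lay apart from the 3 of the other in 6 of the 7 members, as they did in 69.7% of all genes tested. Each of these 6 had a two-sided exact permutation p of 0.10, the smallest that 3 libraries against 3 allow.

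**Figure D1:**
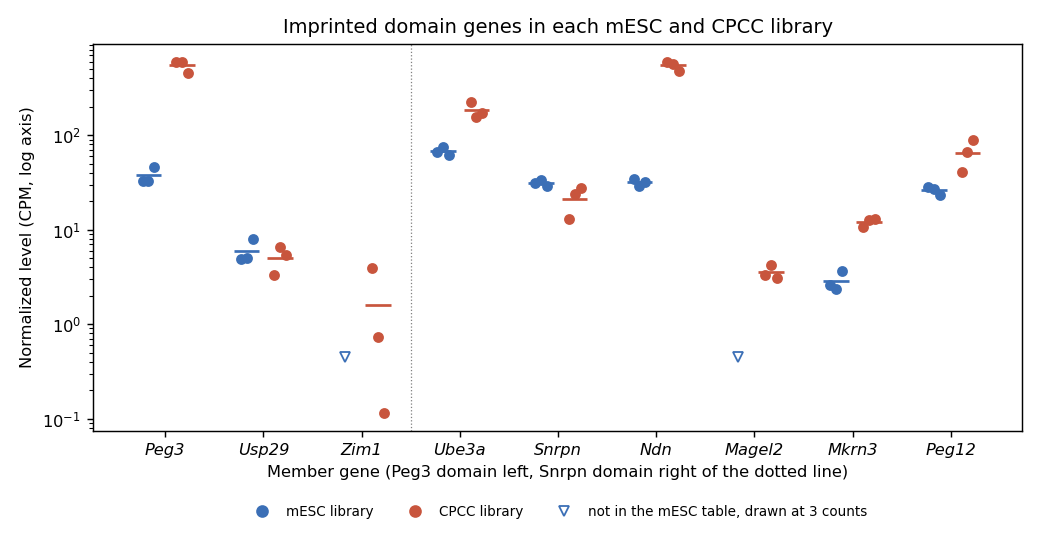
Normalized level in CPM (log axis) of the 9 genes in each library of mESCs (blue) and CPCCs (red), with bars at group means and triangles at 3 counts for genes missing from the mESC table. *Peg3* and *Ndn* rise together to a mean of 552 and 551 CPM in CPCCs, while the mean of *Usp29* goes from 5.95 to 5.07 CPM and that of *Snrpn* from 31.2 to 21.4 CPM.

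Of the *Peg3* domain, *Peg3* itself (chromosome 7, 6705960 to 6730420 in mm10, minus strand) encodes a zinc finger protein of muscle and neural progenitors and of the placenta. In mESCs its level was 33.0 CPM in S01, 33.0 CPM in S02 and 46.6 CPM in S03, and in CPCCs it was 603 CPM in S04, 596 CPM in S05 and 457 CPM in S06. The lowest CPCC library thus lay far above the highest mESC library. On the log2 scale it rose by 3.88 (edgeR, standard error 0.22, adjusted p = 2.71e-06), and 4.19% of all genes tested rose more. Among the genes listed for a library, *Peg3* ranked from 4653 to 5651 by CPM in mESCs and from 179 to 239 in CPCCs.

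*Usp29* (6730583 to 6967220, plus strand) encodes a deubiquitinase and is transcribed away from *Peg3* from the same window. In mESCs it had 4.88, 5.07 and 7.90 CPM, and S04, S05 and S06 had 3.28, 6.55 and 5.39 CPM. The ranges overlap, and the extremes are S03 in mESCs and S04 in CPCCs. Its log2 fold change was -0.23 (edgeR, standard error 0.43, 95% interval -1.20 to 0.73, adjusted p = 0.653), so a change of *Peg3*'s size lies outside the interval. Without S03 or without S04 it was 0.02, of the other sign.

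The ratio of *Peg3* to *Usp29* counts within a library sets this pair side by side without any scaling between libraries. The mESC libraries had ratios of 6.78, 6.51 and 5.90, and the CPCC libraries 184 in S04, 90.9 in S05 and 84.8 in S06. On the log2 scale it rose by 4.14, from 2.67 ± 0.10 in mESCs to 6.81 ± 0.62 in CPCCs (SD, n = 3 each, two-sided exact permutation p = 0.10). The spread in CPCCs came mostly from S04, which had the highest *Peg3* and the lowest *Usp29* level of the CPCC libraries.

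The antisense RNA *Peg3os* lies inside *Peg3*, and library preparation did not keep the strand, so reads of the pair cannot be told apart. *Peg3os* lay at 16.8, 15.8 and 24.8 CPM in the mESC libraries, and at 203, 102 and 80.3 CPM in the CPCC libraries, a rise of 2.74 on the log2 scale (edgeR, standard error 0.37, adjusted p = 0.000227). When summed, an option added with the data in view, *Peg3* and *Peg3os* rose 12.0-fold (adjusted p = 5.01e-06 from edgeR), from 56.7 ± 12.7 to 680 ± 135 CPM (SD, n = 3).

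*Zim1* (6675443 to 6696433, minus strand), a zinc finger gene 34.0 kb from the *Peg3* start, is the member known for maternal expression. It had 40, 6 and 1 counts in S04, S05 and S06, or 3.98, 0.728 and 0.115 CPM, and is absent from the mESC table, which lists genes with at least 10 counts over its libraries. Only S04 stands clear of the floor of 3 counts per library by a wide margin, and S06 is under it. Against that floor in mESCs *Zim1* was at least 3.59-fold higher in CPCCs, but without S04 its mean was 0.94 of the floor, which gives no bound above 1. It did not pass edgeR's filter on low counts, whether missing genes were set to 0 or to 3 counts, and was not tested.

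Of the tested members in the *Snrpn* domain, *Ndn* rose most. *Ndn* (62348277 to 62349928, plus strand) encodes necdin, a MAGE family protein that restrains growth and binds E2F1. Its mESC libraries had 34.4, 29.0 and 31.7 CPM, and its CPCC libraries 600, 574 and 480 CPM. Within each cell type the libraries lay close together, with a coefficient of variation of 8.62% in mESCs and 11.5% in CPCCs. Its log2 fold change of 4.12 (edgeR, standard error 0.18, adjusted p = 1.31e-06) was the largest of the 7 members tested, and 3.46% of all genes tested rose more.

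*Magel2* (62376979 to 62381641, plus strand), a MAGE gene 28.7 kb from *Ndn* whose protein works with TRIM27 and the WASH complex in endosomal recycling, is listed for CPCCs only. It had 33, 35 and 27 counts, or 3.28, 4.24 and 3.09 CPM, all above the floor, which puts the rise at 7.90-fold or more. Set to 3 counts in each mESC library, it passed edgeR's threshold. That call rests on set mESC values without spread and adds nothing to the bound.

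*Mkrn3* (62417593 to 62420140, minus strand) encodes a RING finger ubiquitin ligase known as a brake on puberty and lies 71.9 kb from *Ndn*. The mESC libraries held 2.63, 2.35 and 3.66 CPM, below all CPCC libraries with 10.7, 12.7 and 13.1 CPM. It rose by 2.07 on the log2 scale (edgeR, standard error 0.35, adjusted p = 0.000876). In mESCs this rested on 17, 16 and 25 counts.

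*Peg12* (62461871 to 62464511, minus strand), also named *Frat3*, encodes a GSK3-binding protein of the Wnt pathway and is the outermost member. Levels of 28.4, 26.8 and 23.4 CPM were measured in mESCs, and S04, S05 and S06 had 41.1, 66.3 and 88.1 CPM. The CPCC libraries differed more among themselves than for *Ndn*, with S04 the lowest here and the highest there. It rose by 1.31 on the log2 scale (edgeR, standard error 0.28, adjusted p = 0.0030), between 1.04 and 1.57 when 1 library was left out.

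*Ube3a* (59228750 to 59306728, plus strand) encodes the ubiquitin ligase E6AP. The mESC libraries had 66.0, 75.02 and 62.2 CPM. All CPCC libraries were above them, with 227, 156 and 174 CPM and the highest in S04. The rise was 1.45 on the log2 scale (edgeR, standard error 0.19, adjusted p = 0.000211). Its antisense transcript *Snhg14* overlaps it and had 8.54 ± 3.44 CPM in mESCs and 11.5 ± 2.57 CPM in CPCCs (SD, n = 3), with a log2 fold change of 0.44 (adjusted p = 0.323 from edgeR). Reads of both in the overlap cannot be told apart.

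*Snrpn* (59982495 to 60450178, minus strand) encodes SmN, the form of the spliceosomal Sm protein B that prevails in neurons. In mESCs it lay at 31.3, 33.7 and 28.7 CPM, against 13.01 CPM in S04, 23.6 CPM in S05 and 27.5 CPM in S06. Each CPCC library lay below each mESC library, by little for S06 and most for S04. Its log2 fold change of -0.55 missed the threshold (edgeR, standard error 0.29, 95% interval -1.20 to 0.10, adjusted p = 0.126). *Snurf*, which shares its transcript, had 12.1 ± 2.51 CPM in mESCs and 10.4 ± 2.02 CPM in CPCCs (SD, n = 3, adjusted p = 0.523 from edgeR). *Snrpn*, *Snurf* and *Snhg14* overlap, and the authors' counting split their reads into fractions. Summed, after the data were seen, they came to 46.7, 54.7 and 54.3 CPM in the mESC libraries, and to 35.3, 44.9 and 49.7 CPM in the CPCC libraries (log2 fold change -0.26, adjusted p = 0.266 from edgeR), and the groups then overlapped.

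**Figure D2:**
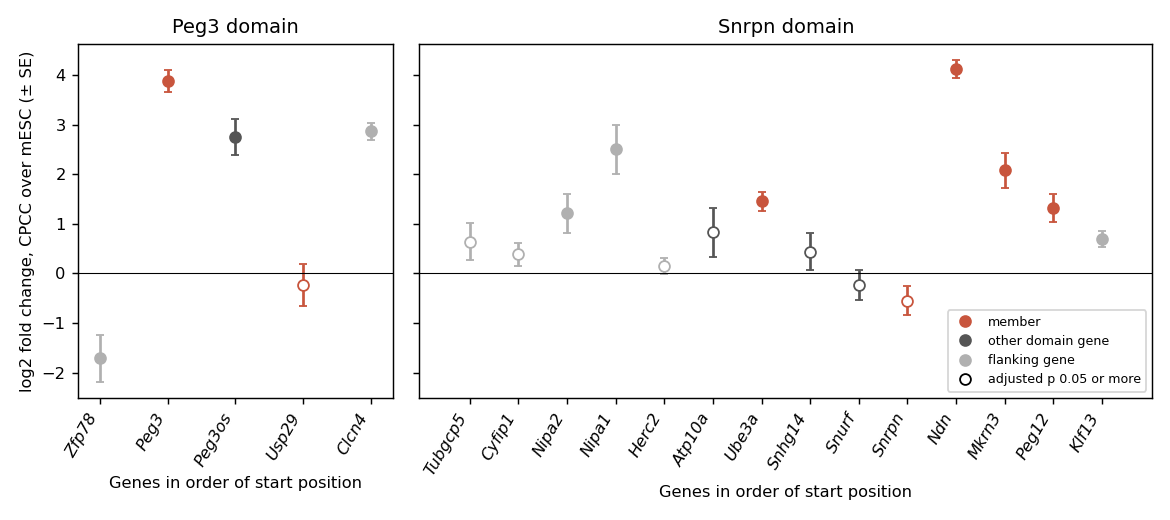
Log2 fold change (CPCC over mESC, with its standard error) of members (red), other genes of the domains (dark grey) and flanking genes (light grey), in order of start position; open points have an adjusted p of 0.05 or more in edgeR. *Peg3* rose by 3.88 beside *Usp29* at -0.23, and *Ndn* rose by 4.12 past *Snrpn* at -0.55.

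Ratios between genes were also compared within the *Snrpn* domain. The ratio of *Ndn* to *Snrpn* counts was 1.10, 0.860 and 1.11 in the mESC libraries, and 46.1 in S04, 24.3 in S05 and 17.4 in S06. Every CPCC library thus had a ratio far above that of every mESC library. The log2 ratio of *Ndn* to *Ube3a* rose by 2.68, that of *Ndn* to *Peg12* by 2.87 and that of *Ndn* to *Mkrn3* by 2.01, each without overlap between the cell types (two-sided exact permutation p = 0.10 each). In all, 9 ratios between genes were computed, for pairs chosen with earlier results of these data known. These ratios restate the fold changes of their genes and are no separate evidence. With 3 libraries a group no ratio can pass 0.05. Adjusted over the 9 (Benjamini-Hochberg), the exact permutation p of 0.10 became 0.15.

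*Ndn* and *Peg3* lie 55.6 Mb apart in separate domains. Their counts stood at a ratio of 1.04, 0.878 and 0.681 in S01, S02 and S03, and of 0.995, 0.964 and 1.05 in S04, S05 and S06. The log2 ratio differed between the cell types by 0.23, with overlap (two-sided exact permutation p = 0.30). In log2 CPM centred on each gene's mean, *Peg3* and *Ndn* differed by a root mean square of 0.21 over the 6 libraries. By that measure *Ndn* was the 27th nearest to *Peg3* of 12470 genes and *Peg3* the 18th nearest to *Ndn*, a pair picked after their values were seen. *Peg3* and *Ndn* together held between 30.3% and 38.4% of the members' summed CPM in mESCs and between 75.1% and 81.2% in CPCCs. The sum over all 9 genes lay between 201 and 205 CPM in mESCs and between 1247 and 1505 CPM in CPCCs.

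**Figure D3:**
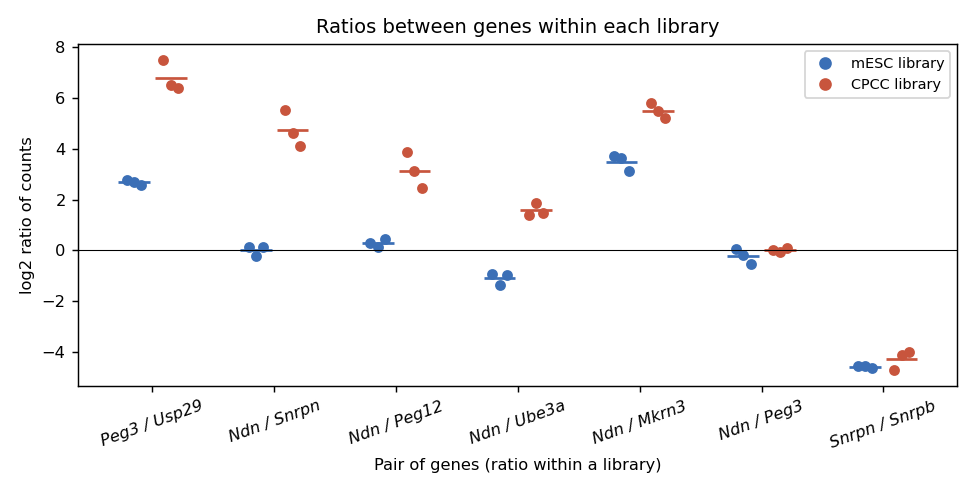
Log2 ratio of counts between pairs of genes in each mESC library (blue) and CPCC library (red), with bars at group means. *Peg3* over *Usp29* rises from 2.67 to 6.81, while *Ndn* over *Peg3* stays near 0 in both cell types.

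The genes whose pattern over the 6 libraries was most like that of a member were named by the smallest root mean square difference in centred log2 CPM. For *Peg3* these were *Epb41l3*, *Lurap1l* and *Spry1* (0.108, 0.109 and 0.113), and for *Ndn* they were *Ctxn1*, *Tmsb4x* and *Tmed3* (0.116, 0.153 and 0.157). *Mkrn3* was nearest to *Nenf*, *Kctd17* and *Zfp422* (0.0785, 0.0922 and 0.106), *Ube3a* to *Gne*, *Zcchc6* and *Mkl2* (0.0549, 0.0728 and 0.102) and *Peg12* to *Apbb1*, *Tmem131l* and *Klhl29* (0.0683, 0.118 and 0.14). The genes nearest to *Usp29* were *Stil*, *Net1* and *Zfp398* (0.0889, 0.128 and 0.138), and to *Snrpn* they were *Hs6st1*, *Polr1a* and *Acaca* (0.0499, 0.0538 and 0.0624). With 6 libraries in 2 cell types, this measure mostly reads the size of the change.

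Levels of different genes were compared as CPM per kb of transcript. In mESCs the order was *Ndn* (19.2 ± 1.66), *Snrpn* (15.1 ± 1.21), *Ube3a* (13.8 ± 1.35), *Peg12* (9.92 ± 0.97), *Peg3* (4.32 ± 0.90), *Mkrn3* (1.13 ± 0.27) and *Usp29* (0.789 ± 0.22), all as mean CPM per kb with SD, n = 3. Neighbours in this order whose ranges overlapped were *Snrpn* and *Ube3a*, and *Mkrn3* and *Usp29*. In CPCCs *Ndn* stood first at 334 ± 38.4 CPM per kb, ahead of *Peg3* (63.5 ± 9.46), *Ube3a* (37.8 ± 7.51), *Peg12* (24.7 ± 8.92), *Snrpn* (10.3 ± 3.61), *Mkrn3* (4.78 ± 0.49), *Magel2* (0.764 ± 0.13), *Usp29* (0.673 ± 0.22) and *Zim1* (0.209 ± 0.27). There the ranges of *Ube3a* and *Peg12* overlapped, as did those of *Magel2* and *Usp29*, and of *Usp29* and *Zim1*. Lengths came from GENCODE transcripts, except for *Ndn*, where the span in the tables was used. The value for *Snrpn* is uncertain because the ends of the transcript used lie far from the span in the tables. For *Peg3* and *Zim1* the ends also differ, by 2069 and 4191 bases over both ends, so their values are uncertain as well.

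**Figure D4:**
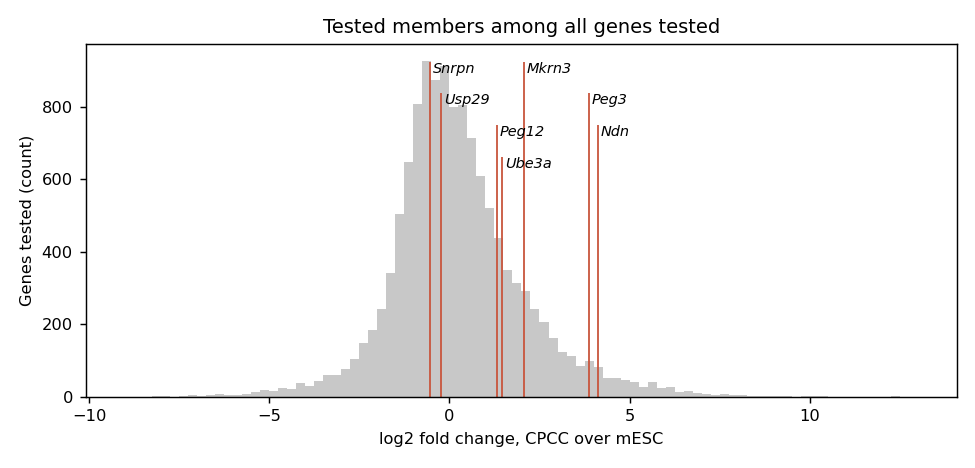
Number of genes by log2 fold change (CPCC over mESC) over the 12471 genes tested, with the 7 tested members marked. *Snrpn* and *Usp29* lie in the bulk of all genes, and *Peg3* and *Ndn* in the upper tail.

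Other genes of both domains were compared from a list of 9 symbols. Of these, 4 were tested and 1, *Peg3os*, was higher in CPCCs, beside 31.7% of all genes tested. That count was 2 without S04, and 0 when overlapping genes were summed, which counts *Peg3os* with *Peg3*. The other 3 tested, *Atp10a*, *Snhg14* and *Snurf*, did not pass the threshold. *Zim3*, a zinc finger gene overlapping the end of *Usp29*, is listed for mESCs only (1.48 ± 2.12 CPM, SD, n = 3). Its mean rests on S02 with 3.90 CPM, against 0.531 CPM in S01 and almost none in S03. *A330076H08Rik* is listed for CPCCs only (0.899 ± 0.57 CPM). The other symbols, *Zim2*, *Zfp264* and *Frat3*, are in neither table, *Frat3* being the older name of *Peg12*.

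Flanking genes were compared from a list of 14. Of these, 8 were tested, 4 were higher and 1 lower in CPCCs (median log2 fold change 0.67). Over all genes tested, 31.7% were higher and 29.7% lower. The count of 4 became 3 without S01, S02 or S04, and with a minimum of 10 counts per library. It became 5 when genes missing for 1 cell type were set to 0 or 3 counts. *Clcn4*, a chloride transporter gene near the *Peg3* domain, rose from 18.9 ± 1.27 to 137 ± 1.93 CPM (SD, n = 3; log2 fold change 2.86, adjusted p = 3.13e-06 from edgeR). *Nipa1*, a magnesium transporter gene, rose from 3.16 ± 1.78 to 17.9 ± 6.57 CPM (5.66-fold, adjusted p = 0.00209 from edgeR). The gene that was lower, *Zfp78*, named after its value was seen, lost its call without S03. *Aurkc*, a meiotic kinase gene just past *Usp29*, is listed for mESCs only (27.9 ± 4.88 CPM, SD, n = 3), which puts it at least 83.3-fold lower in CPCCs. Listed for CPCCs only were *Otud7a* (3.46 ± 0.94 CPM), *Gabra5* (1.32 ± 0.66 CPM), *Chrna7* (0.596 ± 0.79 CPM) and *Gabrg3* (0.554 ± 0.083 CPM), and *Oca2* was in neither table.

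Paralogs of the members were compared from a list of 14. All were tested, and 4 were higher, 5 lower and 5 past no threshold in CPCCs, beside 31.7% higher and 29.7% lower over all genes tested. The 4 that rose were MAGE genes, like *Ndn*: *Magee1* rose from 2.03 ± 1.45 to 70.4 ± 11.3 CPM (SD, n = 3; log2 fold change 5.10, adjusted p = 1.54e-05 from edgeR) and *Maged2* from 30.5 ± 4.31 to 225 ± 42.1 CPM (2.88, adjusted p = 8.74e-06). *Mageh1* and *Maged1*, named after their values were seen, rose by 2.44 and 1.51 on the log2 scale, and a further MAGE gene, *Nsmce3*, had a log2 fold change of 0.18 and did not pass. The Makorin genes *Mkrn1* and *Mkrn2*, also named after the fact, fell by 2.25 and 1.17 on the log2 scale, while *Mkrn3* rose. *Usp26* and *Usp37*, relatives of *Usp29* named in the same way, fell by 1.85 and 1.32, and *Snrpb* fell by 0.91.

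*Snrpb* encodes the Sm protein B that SmN can replace. It fell from 749 ± 36.0 to 399 ± 48.5 CPM (SD, n = 3, adjusted p = 0.000794 from edgeR). *Snrpn* counts came to 0.0422, 0.0428 and 0.0400 of those of *Snrpb* in mESCs. The CPCC libraries had 0.0377, 0.0575 and 0.0625. This ratio overlapped between the cell types (two-sided exact permutation p = 0.40). Of 10 Sm and snRNP core genes, 8 were lower and 0 higher in CPCCs, beside 29.7% lower over all genes tested. The median log2 fold change of the 10 was -1.01, with the largest falls in *Snrpf* (-1.77, standard error 0.29) and *Snrpe* (-1.53, standard error 0.21). *Snrpn*, with a log2 fold change of -0.55, did not pass the threshold, and its difference from that list was not tested.

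Factors that keep imprints, or that write and erase DNA methylation, mostly fell. Of 15, all tested, 10 were lower and 2 higher in CPCCs (median log2 fold change -1.45, against 0.03 over all genes tested). Among all genes tested, 29.7% were lower and 31.7% higher. *Dppa3*, which protects methylation in the early embryo, fell from 55.4 ± 8.76 to 1.85 ± 1.10 CPM (SD, n = 3; log2 fold change -4.91, adjusted p = 1.34e-05 from edgeR), and *Tet3*, which oxidizes methylcytosine, rose from 11.0 ± 5.62 to 77.6 ± 9.62 CPM (2.82, adjusted p = 0.000233 from edgeR). Named after their values were seen, *Zfp57*, which binds methylated imprints, fell from 214 ± 46.8 to 54.5 ± 14.4 CPM and its corepressor *Trim28* from 1307 ± 236 to 312 ± 98.6 CPM. *Dnmt3a* was the other gene that rose. *Zfp445*, *Yy1* and *Dnmt3l* did not pass the threshold.

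Genes for protein partners of the members were compared from a further list. Of 15, all tested, 2 were higher and 7 lower in CPCCs (median log2 fold change -0.29), beside 31.7% and 29.7% of all genes tested. *Ngfr*, the neurotrophin receptor p75 that necdin binds, fell from 9.25 ± 2.10 to 0.916 ± 1.05 CPM (SD, n = 3; log2 fold change -3.36, adjusted p = 0.00835 from edgeR), and *E2f1* from 132 ± 17.9 to 38.2 ± 17.4 CPM (-1.79, adjusted p = 0.00126). The 2 that rose, *Gsk3b* and *Siah1a*, were named after their values were seen. Only 1 of them was left without S01, S02 or S06, or with missing genes at 3 counts. *Trim27* and *Usp7*, partners of MAGEL2 also named after their values were seen, fell by 1.28 and 1.45 on the log2 scale.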

How the data were processed

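Per the labels and the paper's methods, polyA+ RNA of 3 mESC and 3 CPCC libraries was amplified with the SMART-Seq v4 kit and sequenced as paired reads. The submitters' processing notes name STAR 2.7 and mm10. The counter is not given in the sources used here. The authors deposited estimated counts per gene, not normalized and without separation of alleles. Each cell type has 1 table, and each table lists genes with at least 10 counts over its 3 libraries. Between 11.4% and 13.6% of values lay more than 0.01 from a whole number. Positions are given as listed, and the listed end of *Peg3*, *Zim1*, *Snrpn* and *Peg12* is 1 base past their RefSeq start site. Reads of the CAST/EiJ allele carry mismatches to the reference, which may lower their alignment in both cell types. As the father was CAST/EiJ, any such loss would fall more on paternally expressed genes than on genes read from both alleles. Levels and ratios of different genes may thus be affected unequally, which was not tested.

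Counts were rounded. The 13001 genes in both tables were filtered with filterByExpr and tested with edgeR 4.0.16 (R 4.3.3, quasi-likelihood, TMM, Benjamini-Hochberg, adjusted p under 0.05). The study's DESeq2 (here 1.42.0) was an alternative. A standard error is the log2 fold change over the square root of F. Genes in 1 table were bounded against 3 counts per library, a mean of 0.448 CPM for mESC and 0.335 CPM for CPCC libraries, which covers counting error only. P-values measure the spread between libraries. Members, lists and tests were chosen with earlier results of these data known. Genes were named by rule: all members, the 2 largest changes past the threshold in each list, its genes in 1 table only, and the 3 genes nearest to each tested member. The planned comparison of protein sequences was not run, and 1 flanking gene is not reported here.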

Additional observations from a re-analysis of the deposited data

How the results depend on the processing

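The 5 members called higher in CPCCs kept that call under all 15 alternatives: DESeq2, upper-quartile scaling, filtering dropped, a minimum of 10 counts per library, library sizes over whole tables, library totals without TMM, genes in either table with missing genes at 0 or at 3 counts, overlapping genes summed (chosen after the data were seen), and each of the 6 libraries left out. Over these, the log2 fold change lay between 3.58 and 4.06 for *Peg3*, 4.05 and 4.22 for *Ndn*, 1.95 and 2.28 for *Mkrn3*, 1.30 and 1.57 for *Ube3a* and 1.04 and 1.57 for *Peg12*. *Snrpn* stayed negative and past no threshold, between -0.77 and -0.26, with a smallest adjusted p of 0.0569. *Usp29* passed none and changed sign in 2, at 0.02 without S03 (0.025) and 0.02 without S04 (0.017), against -0.46 at the lowest. With missing genes at 0 or 3 counts *Magel2* made 6 members called, a call that rests on set mESC values and not on measured ones. Over all genes, between 6536 and 9011 passed, against 7656. Low counts limit *Zim1*, *Magel2* and *Mkrn3*. No paired analysis was possible because the columns carry no replicate numbers.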
